A study of Arabidopsis thaliana with 6 samples.

Results

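Transcripts of 10 phi-class glutathione transferases, *GSTF2*, *GSTF3*, *GSTF6*, *GSTF7*, *GSTF8*, *GSTF9*, *GSTF10*, *GSTF11*, *GSTF12* and *GSTF14*, were examined among 32833 genes of the *Arabidopsis thaliana* anther. The 10 were chosen by gene ID from this family with earlier results of the same libraries known, among them the higher level of *GSTF9* in *ice1-2*, so the differences given for them below describe these libraries and support nothing further. Another 3 phi-class genes, *GSTF4*, *GSTF5* and *GSTF13*, are set beside them. RNA-seq was performed on anthers of flower stages 9 to 13 from plants grown in long days at 22 °C, with 3 libraries (A, B and C) of the wild type Col-0 and 3 of *ice1-2*. The *ice1-2* allele is the single T-DNA line SALK_003155 in Col-0, with the insertion in the third exon of *ICE1*, which encodes a basic helix-loop-helix (bHLH) transcription factor of cold response and stomatal development. The comparison asks which anther transcripts differ when *ICE1* is disrupted.

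Glutathione transferases join the tripeptide glutathione to reactive or foreign compounds, and some bind small molecules without changing them. The phi class is found in plants. Its members have been tied to herbicide detoxification, to the delivery of anthocyanins to the vacuole, and to the synthesis of the sulfur-rich defence compounds camalexin and glucosinolates.

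Levels are in FPKM, the fragments of a gene scaled to its length and to the mapped fragments of its library, 1 value per gene and library. *ICE1* itself had 12.7, 9.25 and 14.02 FPKM in Col-0 against 12.9, 15.4 and 21.5 in the libraries labelled *ice1-2*. A value over the whole gene does not check a label when the insertion lies inside it, so the libraries are called by their labels here. Pollen markers were abundant in every library. The summed FPKM of 7 genes was lower in the libraries labelled *ice1-2*, at 9355 to 14963 against 15074 to 19019 in Col-0, although the groups nearly met. The sum of 13 green-tissue markers stood higher in the libraries labelled *ice1-2*, at 2411 to 4143 against 1240 to 1448 in Col-0. In whole anthers, fewer cells of a type and less RNA per cell cannot be told apart. Tapetum markers were uneven within both groups: the sum of 8 genes was 692 in Col-0 A and 59.2 and 53.2 in Col-0 B and C, and 198, 388 and 353 in the libraries labelled *ice1-2* (A, B and C). From the steps between low values, *ice1-2* A appeared the shallowest, at roughly 6100000 fragments, and the other libraries lay at 15000000 to 28200000. The estimate is loose: 26.6 to 40.2% of the low values came within 0.05 of a step, and 10% would by chance. The labels give no source culture or plant for a library, so the p-values measure only the spread between these libraries.

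A gene was tested with limma on log2(FPKM + 0.5) when at least 3 libraries reached 1 FPKM, and was called when its log2 fold change passed 1 in either direction with a Benjamini-Hochberg (BH) adjusted p under 0.05. Fold changes on this scale understate those of low genes. Of 18858 genes tested, 1.54% were called higher in the libraries labelled *ice1-2* and 0.233% lower. Of the 10 members 4 were tested (*GSTF8*, *GSTF9*, *GSTF10* and *GSTF12*), of which 2 were called higher and 0 lower. The remaining 6 stayed under this filter, and 2 of them, *GSTF3* and *GSTF14*, were listed at 0 in all 6 libraries. *GSTF12* entered the test through the libraries labelled *ice1-2* and Col-0 A, with Col-0 B and C under the 1 FPKM limit, so its presence among the tested genes already rests on its higher level there.

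The members fell into abundant, low and nearly silent genes. In Col-0 the order by mean FPKM was *GSTF8*, *GSTF10*, *GSTF9*, *GSTF12*, *GSTF2*, *GSTF6*, *GSTF11*, and then the 3 genes listed at 0 in Col-0, *GSTF3*, *GSTF7* and *GSTF14*. The ranges of the 3 Col-0 libraries did not overlap between *GSTF8* and *GSTF10*, between *GSTF10* and *GSTF9*, or between *GSTF9* and *GSTF12*. They overlapped between *GSTF12* and *GSTF2* and between *GSTF6* and *GSTF11*. In the libraries labelled *ice1-2* the ranges of *GSTF10* and *GSTF9* overlapped.

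**Figure D1:**
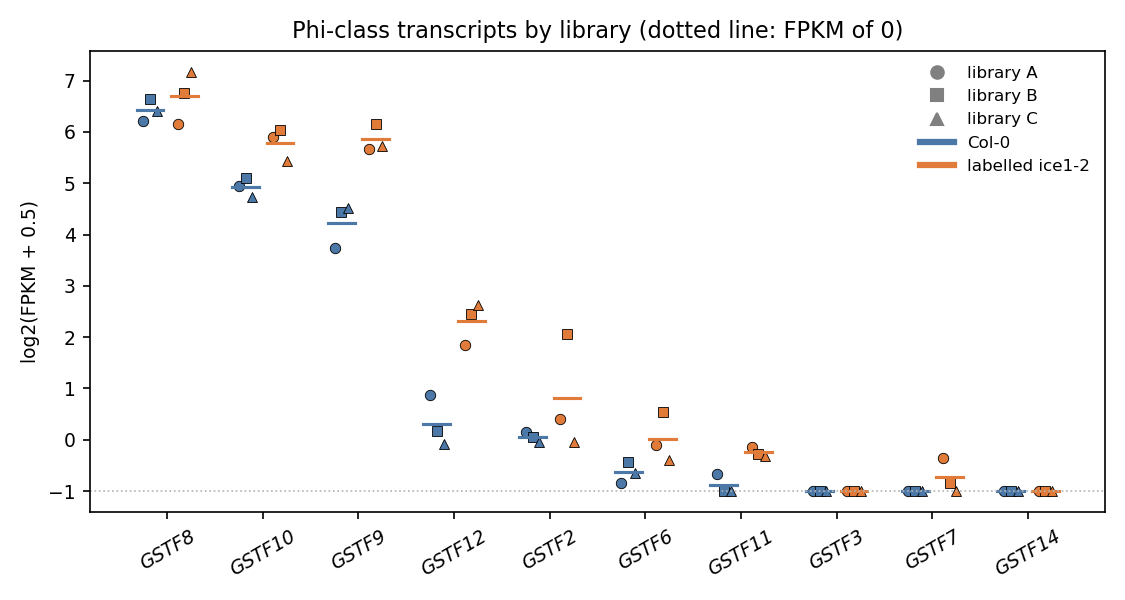
Level of each of the 10 members in each library, as log2(FPKM + 0.5); circles, squares and triangles are libraries A, B and C, horizontal lines are group means on this scale, and the dotted line marks an FPKM of 0. *GSTF9*, *GSTF10* and *GSTF12* lie higher in all 3 libraries labelled *ice1-2* than in any Col-0 library, *GSTF8* overlaps, and *GSTF3* and *GSTF14* stay at 0.

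*GSTF9* (AT2G30860), a candidate enzyme for the step of indole glucosinolate synthesis that uses glutathione, has 3 exons at chr2:13138882-13140392 on the plus strand (RefSeq, TAIR10.1). It had 12.9, 21.1 and 22.5 FPKM in the Col-0 libraries (A, B, C) against 50.5, 71.2 and 52.7 FPKM in those labelled *ice1-2*. Every library labelled *ice1-2* stood well above every Col-0 library, and Col-0 A was the lowest of all. The means were 18.9 ± 5.18 and 58.1 ± 11.4 FPKM (SD, n = 3 each), and the log2 fold change was 1.62 with a standard error of 0.25 (BH-adjusted p = 0.0321 from limma). In rank, *GSTF9* went from above 73.8% of the tested genes in Col-0 to above 90.2% in the libraries labelled *ice1-2*. The call was kept without Col-0 A (log2 fold change 1.38) and without *ice1-2* A. It did not hold when *ice1-2* C, *ice1-2* B, Col-0 C or Col-0 B was left out (limma, BH-adjusted p of 0.0831, 0.089, 0.0733 and 0.0859 in that order), where the log2 fold change ran from 1.47 to 1.77.

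*GSTF10* (AT2G30870), which binds the receptor kinase BAK1, starts 897 bases downstream of *GSTF9* on the same strand, at chr2:13141290-13142676. Its levels were 30.4, 33.7 and 26.2 FPKM in Col-0 against 59.7, 64.9 and 43.0 FPKM in the libraries labelled *ice1-2*. The groups did not overlap, although *ice1-2* C lay closer to Col-0 than A and B did. The means were 30.1 ± 3.76 and 55.9 ± 11.5 FPKM (SD, n = 3 each), with a log2 fold change of 0.87 and a standard error of 0.21, under the fold limit (BH-adjusted p = 0.0712 from limma). The FPKM of *GSTF9* over that of *GSTF10* was 0.425, 0.628 and 0.86 in Col-0 against 0.846, 1.1 and 1.23 in the libraries labelled *ice1-2*. The ratio ranged about as widely within Col-0 as the group means of 0.638 and 1.06 lay apart, and Col-0 C and *ice1-2* A were alike.

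The coding sequences of this adjacent pair were 77.6% identical, and no stretch of 100 bases of transcript was shared exactly between them or with any other annotated gene. Their first 120 coding bases are shown because they let the pair be compared base by base; capitals mark the 34 positions at which they differ (5′ to 3′, RefSeq, TAIR10.1).
GSTF9, chr2:13139132-13139251, plus strand: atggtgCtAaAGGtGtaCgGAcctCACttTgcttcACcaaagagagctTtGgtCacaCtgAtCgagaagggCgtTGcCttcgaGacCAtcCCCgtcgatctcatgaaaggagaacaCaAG
GSTF10, chr2:13141490-13141609, plus strand: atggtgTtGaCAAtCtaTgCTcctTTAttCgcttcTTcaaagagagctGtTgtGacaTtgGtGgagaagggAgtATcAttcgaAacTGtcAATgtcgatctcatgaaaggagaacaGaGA

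*GSTF12* (AT5G17220), known as TRANSPARENT TESTA 19 and needed for anthocyanins to reach the vacuole, was a low transcript from chr5:5658416-5659661, plus strand. It had 1.32, 0.621 and 0.44 FPKM in Col-0 against 3.11, 4.99 and 5.64 FPKM in the libraries labelled *ice1-2*. The groups did not overlap, and the highest Col-0 library was A, the one rich in tapetum markers. The means were 0.795 ± 0.467 and 4.58 ± 1.31 FPKM (SD, n = 3 each), with a log2 fold change of 2.00 and a standard error of 0.32 (BH-adjusted p = 0.0326 from limma). As for *GSTF9*, the call did not hold when *ice1-2* C, *ice1-2* B, Col-0 C or Col-0 B was left out (limma, BH-adjusted p of 0.101, 0.0943, 0.0802 and 0.113 in that order). The log2 fold change depended on the pseudocount and was 2.47 with 0.1 and 1.64 with 1.

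The last 108 of the 1096 transcript bases of *GSTF12* (9.85%) lie under exons of *PSY* on the opposite strand in the RefSeq annotation, and strand was not stated for the counting. *PSY*, the phytoene synthase of carotenoid synthesis, had 91.8, 48.8 and 104 FPKM in Col-0 against 92.4, 85.2 and 114 FPKM in the libraries labelled *ice1-2*. Its level in Col-0 C exceeded those of *ice1-2* A and B, while *GSTF12* was lowest in Col-0 C. The part of *PSY* reads in the *GSTF12* values was not tested.

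*GSTF8* (AT2G47730), a stress-induced enzyme found in plastids, was the most abundant member, with its gene at chr2:19556326-19559485, plus strand. Its 73.4, 99.8 and 84.4 FPKM in Col-0 overlapped the 70.6, 108 and 144 FPKM of the libraries labelled *ice1-2*. Library *ice1-2* A was the lowest of the 6 and *ice1-2* C the highest. The means were 85.9 ± 13.3 and 108 ± 36.7 FPKM (SD, n = 3 each), with a log2 fold change of 0.28 and a standard error of 0.28 (BH-adjusted p = 0.594 from limma). It stood above 94.1% of the tested genes in Col-0 and above 95.0% of them in the libraries labelled *ice1-2*.

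The upstream sequence of these 4 members is shown because ICE1, as a bHLH protein, recognises the E-box CANNTG, and because TGACG is the core bound by TGA factors in several stress-induced glutathione transferase promoters. Each run ends at the base before the RefSeq gene start (TAIR10.1), reaches back 250 bases or to the end of the next gene, and carries CANNTG and TGACG on either strand in capitals.
GSTF9, chr2:13138632-13138881, plus strand: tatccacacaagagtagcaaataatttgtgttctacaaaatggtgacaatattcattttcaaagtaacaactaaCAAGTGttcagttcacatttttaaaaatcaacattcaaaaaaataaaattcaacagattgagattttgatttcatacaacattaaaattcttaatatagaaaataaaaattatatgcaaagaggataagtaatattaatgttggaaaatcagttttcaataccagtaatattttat
GSTF10, chr2:13141040-13141289, plus strand: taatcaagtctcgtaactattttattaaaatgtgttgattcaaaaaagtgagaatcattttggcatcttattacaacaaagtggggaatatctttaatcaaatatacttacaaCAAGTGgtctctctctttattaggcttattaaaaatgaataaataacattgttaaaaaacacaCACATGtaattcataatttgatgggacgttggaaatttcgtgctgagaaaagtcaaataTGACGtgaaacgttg
GSTF12, chr5:5658194-5658415, plus strand: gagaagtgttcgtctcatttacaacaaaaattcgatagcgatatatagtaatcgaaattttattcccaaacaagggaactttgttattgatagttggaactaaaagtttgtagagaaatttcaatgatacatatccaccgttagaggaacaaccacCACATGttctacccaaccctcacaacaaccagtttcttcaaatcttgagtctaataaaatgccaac
GSTF8, chr2:19556127-19556325, plus strand: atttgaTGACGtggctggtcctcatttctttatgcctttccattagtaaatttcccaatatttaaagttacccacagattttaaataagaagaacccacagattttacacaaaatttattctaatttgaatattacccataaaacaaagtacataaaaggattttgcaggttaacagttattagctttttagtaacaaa

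Within 250 bases CANNTG occurred once before *GSTF9*, once before *GSTF12*, at 2 places before *GSTF10* and not before *GSTF8*. It was present before 7 of the 10 members and before 55.3% of 27443 genes, on either strand. TGACG occurred before *GSTF10*, *GSTF8* and *GSTF3*, that is 3 of the 10, and before 18.6% of all genes. The G-box CACGTG, a form of CANNTG, occurred before *GSTF6* alone among the members and before 6.49% of all genes. Thus *GSTF9* and *GSTF12*, which were called, and *GSTF10*, which was not, each held an E-box, a match that most upstream regions of the genome also hold. A match of letters is no evidence of binding.

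The low members were fitted without the filter on FPKM, over the 27825 genes above 0 in any library. *GSTF11* (AT3G03190), tied to aliphatic glucosinolate synthesis, had 0.13, 0 and 0 FPKM in Col-0 against 0.412, 0.323 and 0.301 FPKM in the libraries labelled *ice1-2*. All 3 of the latter were higher, with a log2 fold change of 0.64 and a standard error of 0.13 (BH-adjusted p = 0.0943 from limma). By the rough depths these were about 3.1, 0 and 0 fragments in Col-0 against 2.3, 6.0 and 4.2. *GSTF11* thus had fewer fragments in *ice1-2* A, the shallowest library, than in Col-0 A. The whole *GSTF11* transcript lies under exons of *NAC045* on the opposite strand, a gene that reached at most 0.392 FPKM, in *ice1-2* C. *GSTF6* (AT1G02930), an enzyme of camalexin synthesis, had 0.0606, 0.244 and 0.141 FPKM in Col-0 against 0.43, 0.964 and 0.263 FPKM in the libraries labelled *ice1-2*. The groups did not overlap but nearly met, and the log2 fold change was 0.65 with a standard error of 0.26 (BH-adjusted p = 0.255 from limma). In rough fragments *GSTF6* had 1.8, 8.1 and 3.9 in Col-0 against 3.1, 22.6 and 4.7. *GSTF7* (AT1G02920), its salicylate-induced neighbour on chromosome 1, was listed at 0 in all Col-0 libraries and in *ice1-2* C, and had 0.281 and 0.0542 FPKM in *ice1-2* A and B.

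*GSTF2* (AT4G02520), which binds camalexin and other indoles, had 0.605, 0.534 and 0.471 FPKM in Col-0 against 0.821, 3.67 and 0.467 FPKM in the libraries labelled *ice1-2*. A single library, *ice1-2* B, carried the difference, while *ice1-2* C was at the level of Col-0. The log2 fold change, 0.75 with a standard error of 0.52 (limma, BH-adjusted p = 0.495), was 0.13 without that library. In the RefSeq annotation 60.5% of the *GSTF2* transcript lies under *TOC159* on the opposite strand, which had 11.8 to 15.3 FPKM in all 6 libraries. *GSTF3* (AT2G02930), its closest relative, and *GSTF14* (AT1G49860), an unusual member of the class, were listed at 0 in every library. Such a 0 says only how the file lists the gene.

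The coding sequences of *GSTF2* and *GSTF3* were 94.5% identical, and those of *GSTF6* and *GSTF7* 94.3%. Of the transcript stretches of 100 bases, *GSTF6* and *GSTF7* shared 17 exactly (1.56% of those of *GSTF6*), and no other member shared any with an annotated gene. The first 120 coding bases of *GSTF2* and *GSTF3* are shown because the pair is the most alike of the family, yet 1 of the 2 was listed at 0; capitals mark the 4 positions that differ (RefSeq, TAIR10.1).
GSTF2, chr4:1111412-1111531, minus strand: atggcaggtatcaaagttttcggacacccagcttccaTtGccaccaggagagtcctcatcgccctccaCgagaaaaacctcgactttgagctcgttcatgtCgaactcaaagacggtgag
GSTF3, chr2:851987-852106, minus strand: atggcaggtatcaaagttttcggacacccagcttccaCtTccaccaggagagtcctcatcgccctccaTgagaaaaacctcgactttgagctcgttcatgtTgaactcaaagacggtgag

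Among all 8 members above 0 in any library, 5 (*GSTF6*, *GSTF9*, *GSTF10*, *GSTF11* and *GSTF12*) had every library labelled *ice1-2* above every Col-0 library and 0 had the reverse. The same held for 16.2% of the 27825 genes above 0. For tested members it held for *GSTF9*, *GSTF10* and *GSTF12*, and for 19.8% of the 18858 tested genes. Because the members were chosen with this contrast in view, nothing is read from these counts.

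The phi-class genes outside the 10 gave mixed values. *GSTF4* (AT1G02950) had 8.29, 2.52 and 2.27 FPKM in Col-0 against 5.28, 4.11 and 8.21 FPKM in the libraries labelled *ice1-2*, and its log2 fold change was 0.55 with a standard error of 0.44 (limma, BH-adjusted p = 0.501). Its highest value was in Col-0 A. *GSTF5* (AT1G02940), next to *GSTF4* on chromosome 1, also peaked in Col-0 A, at 2.35 FPKM, and lay between 0.473 and 0.843 FPKM in the other 5 libraries. *GSTF13* (AT3G62760) had 0.39, 0.121 and 0.0535 FPKM in Col-0 against 0.275, 1.26 and 1.46 FPKM in the libraries labelled *ice1-2*, where A overlapped Col-0.

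A share of the phi-class pool within a library does not depend on how that library was scaled. The summed FPKM of the 10 members was 119, 156 and 134 in Col-0 against 186, 254 and 246 in the libraries labelled *ice1-2*. *GSTF8* made up 61.7, 64.0 and 62.9% of it in Col-0 against 38.0, 42.5 and 58.5% in the libraries labelled *ice1-2*, so *ice1-2* C was nearer to Col-0 than to its own group. *GSTF9* made up 10.9, 13.5 and 16.8% in Col-0 against 27.2, 28.0 and 21.4% in the libraries labelled *ice1-2*. The share of *GSTF9* was 11.8 percentage points higher and that of *GSTF8* was lower, by the means of 62.9% ± 1.13 and 46.3% ± 10.8 (SD, n = 3 each).

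The share of *GSTF12* was 1.11, 0.398 and 0.328% in Col-0 against 1.68, 1.96 and 2.29% in the libraries labelled *ice1-2*, without overlap. *GSTF10* held 25.6, 21.6 and 19.5% in Col-0 against 32.1, 25.5 and 17.4% in the libraries labelled *ice1-2*, and the groups overlapped. An exact two-sided permutation test of 3 libraries against 3 cannot give a p below 0.1, which the shares of *GSTF8*, *GSTF9*, *GSTF11* and *GSTF12* reached (BH-adjusted p = 0.2 over the 8 members above 0), so no share passed 0.05. The FPKM of *GSTF9* over that of *GSTF8* was 0.176, 0.212 and 0.267 in Col-0 against 0.715, 0.658 and 0.366 in the libraries labelled *ice1-2*. *GSTF9* thus stood higher relative to *GSTF8* in each library labelled *ice1-2*, least so in C.

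**Figure D2:**
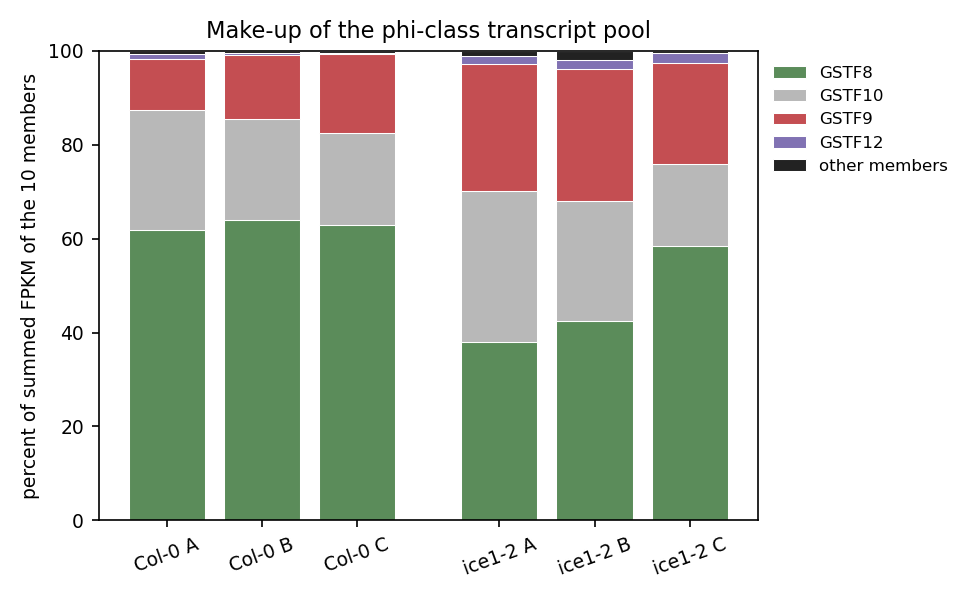
Stacked bars give the percent of the summed FPKM of the 10 members held by each in each library; the other members are *GSTF2*, *GSTF6*, *GSTF7* and *GSTF11*, as *GSTF3* and *GSTF14* are at 0. *GSTF8* holds 61.7 to 64.0% in Col-0 against 38.0 to 58.5% in the libraries labelled *ice1-2*, while *GSTF9* goes from 10.9 to 16.8% to 21.4 to 28.0%.

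The tau class, the other large class of plant glutathione transferases, held 28 listed genes, of which 17 were tested. In it 4 were called higher and 0 lower, with a median log2 fold change of 0.83 against 0.15 over all tested genes. The called genes were *GSTU20*, whose protein binds the jasmonate-conjugating enzyme JAR1 (log2 fold change 2.00), *GSTU24*, which conjugates the explosive TNT (1.26), *GSTU7* (1.17) and *GSTU27* (1.15), the last named after its values were seen. *GSTU20* had 13.9, 14.9 and 9.77 FPKM in Col-0 against 39.2, 51.0 and 70.3 FPKM in the libraries labelled *ice1-2* (BH-adjusted p = 0.0209 from limma). Of these 4 genes, *GSTU20* and *GSTU24* stayed called without *ice1-2* A, 3 stayed called without Col-0 A, and no tau-class gene was called when *ice1-2* C, *ice1-2* B, Col-0 C or Col-0 B was left out. Among the 11 tested genes of the small classes (zeta, theta, lambda, dehydroascorbate reductases and others) 0 were called, and their median log2 fold change was 0.37. Without *ice1-2* A, 1 of them was called higher, *DHAR3*, a dehydroascorbate reductase named after its values were seen.

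**Figure D3:**
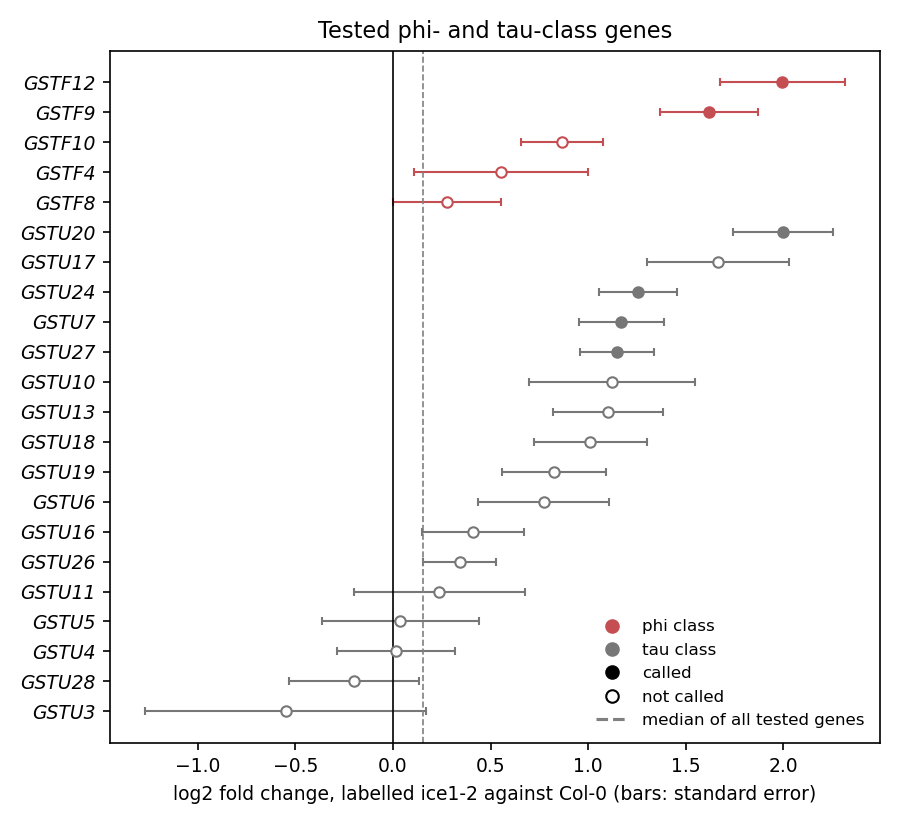
Log2 fold change on the log2(FPKM + 0.5) scale, libraries labelled *ice1-2* against Col-0, of the tested phi-class genes (red) and tau-class genes (grey); bars are standard errors, filled points were called and the dashed line is the median of all tested genes, 0.15. *GSTF12* at 2.00 and *GSTF9* at 1.62 lead the phi class, and *GSTU20* at 2.00 leads the tau class.

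Lists of genes that work with phi-class enzymes were set beside them. The 10 genes of glutathione synthesis, reduction and export were all tested, 0 were called, and their median log2 fold change was 0.18. Of the 9 tested glucosinolate genes 2 were called higher, *CYP83B1*, a cytochrome P450 that makes the compound to which glutathione is joined (log2 fold change 1.91), and *UGT74C1*, a glucosyltransferase of the pathway (1.29). *CYP83B1* had 1.64, 2.69 and 3.70 FPKM in Col-0 against 8.28, 15.2 and 10.6 FPKM in the libraries labelled *ice1-2*, again highest in *ice1-2* B, as was *GSTF9*. The median of the 9 was 1.01. Of the 17 listed anthocyanin genes, the pathway of the cargo of *GSTF12*, 7 were tested and 0 called (median 1.17). These 7 were *CHS*, *CHI*, *F3H*, *F3'H*, *UGT78D2*, *EGL3* and *TTG1*. The others stayed under the filter, among them *DFR* and *LDOX*, which reached at most 0.474 and 1.51 FPKM. The median does not cover them. All 7 tested genes had a positive log2 fold change, as did 12293 of the 18858 tested genes. From the list of camalexin synthesis and salicylate response 6 genes were tested and 0 called (median 0.24). All 6 belong to the salicylate response (*PR5*, *NPR1*, *WRKY70*, *TGA2*, *TGA5* and *TGA6*). The camalexin genes *CYP71A12*, *CYP71A13* and *PAD3* stayed under the filter, so these values do not cover camalexin synthesis. Of the 7 tested genes of the detoxification response 1 was called higher, *OPR1*, a cytosolic reductase related to the jasmonate enzyme OPR3 (log2 fold change 1.67). *OPR1* passed the filter through the libraries labelled *ice1-2* alone, with 0.44, 0.575 and 0.501 FPKM in Col-0 against 3.51, 3.52 and 1.51. These counts changed with the libraries kept, as did the count over all genes. Without *ice1-2* C, *ice1-2* B, Col-0 C or Col-0 B, 11, 19, 22 and 16 genes were called higher in that order, in place of 291. Without Col-0 A the count over all genes rose to 547, and without *ice1-2* A it was 249. With Col-0 A left out, 3 glucosinolate, 4 anthocyanin and 1 detoxification gene were called higher, and with *ice1-2* C, *ice1-2* B, Col-0 C or Col-0 B left out, 0 of each. Without *ice1-2* A the counts were 2, 0 and 0.

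Scaling by median ratios moved the median over all tested genes from 0.15 to -0.0081 on the log2 scale, and lowered the values of the 4 tested members. *GSTF9* then had 1.45 (BH-adjusted p = 0.0561 from limma, not called), *GSTF12* 1.86 (0.0411, called), *GSTF10* 0.69 and *GSTF8* 0.10. The medians were 0.65 for the tau class, 0.84 for the glucosinolate genes, 1.00 for the anthocyanin genes and 0.04 for glutathione supply. Each of these kept its sign.

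Levels of cell type markers were set beside these values and did not all move the same way. Of the 13 green-tissue markers, all tested, 3 were called higher (*RBCS2B*, *RBCS3B* and *PSAF*) and 0 lower, with a median log2 fold change of 1.36 and none at 0 in all libraries. In 8 of the 13 every library labelled *ice1-2* was above every Col-0 library, against 19.8% of tested genes. *LHCB1.1*, *LHCB1.2*, *LHCB2.1* and *LHCA1* lay within the Col-0 range in *ice1-2* B, at 36.5, 23.8, 23.6 and 67.4 FPKM. *RBCS1B* in *ice1-2* C, at 7.60 FPKM, was under every Col-0 library. The summed level of the 13 was higher in each library labelled *ice1-2*, highest in C, where *GSTF8* and *GSTF12* were also highest, whereas *GSTF9* was highest in B. Of 5 tested guard cell markers 1 was called lower, *TGG1*, and the sum of 8 was 40.3 to 78.2 FPKM against 108 to 126 FPKM in Col-0. Most of that sum was *TGG1* and *TGG2*. For 3 of the 5 tested, *TGG1*, *TGG2* and *MPK12*, the groups did not overlap and Col-0 stood above. Their log2 fold changes were -1.60, -1.15 and -0.98. The other tested markers did not share this: *KAT1* had 17.3, 2.91 and 2.52 FPKM in Col-0 against 12.2, 13.0 and 15.9 FPKM, and *MYB60* a log2 fold change of -0.04. *FAMA*, *SLAC1* and *HT1*, under the filter, were listed at 0 in *ice1-2* A, the library put at the lowest depth. *FAMA* had 0.907, 0.909 and 1.30 FPKM in Col-0 against 0.266 and 0.114 FPKM in *ice1-2* B and C. Its log2 fold change was -1.31, fitted without the filter (BH-adjusted p = 0.0802 from limma). *SLAC1* and *HT1* reached at most 0.0851 and 0.0818 FPKM with the *ice1-2* label, and at least 0.137 and 0.135 FPKM in Col-0. Of 3 tested carpel and ovule markers 1 was called higher, *CRC* (log2 fold change 1.82), which passed the filter through the libraries labelled *ice1-2* alone (0.499, 0.918 and 0.327 FPKM in Col-0). The other tested markers of this list did not share this. *SPT* had a log2 fold change of -0.25 and *SHP2* 0.44, and in both the groups overlapped. The petal marker *RBE* reached at most 0.165 FPKM. Of the 7 pollen markers, all tested, 0 were called and 0 had a positive log2 fold change (median -0.57). In 3 of them, *VGD1*, *SKS14* and *PTEN1*, every library labelled *ice1-2* was below every Col-0 library. The same held for 1394 of the 18858 tested genes. The part of pollen, green tissue or other organs in the phi-class differences was not tested.

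The tapetum markers, of which 7 were tested and 0 called, followed single libraries more than genotype. *A9*, a tapetum gene, had 50.2, 0.0682 and 0.0644 FPKM in Col-0 against 1.43, 39.7 and 6.78 FPKM in the libraries labelled *ice1-2*. *CYP704B1*, *CYP703A2* and *LAP5* were listed at 0 in Col-0 C. Without Col-0 A and *ice1-2* B, the library with the highest *A9* in each group, the log2 fold changes were 1.22 for *GSTF9* (BH-adjusted p = 0.0301 from limma) and 2.20 for *GSTF12* (BH-adjusted p = 0.0037 from limma), both called, a choice made after the data were seen. With fewer libraries left, this fit asked for 1 FPKM in fewer of them, so the genes tested differed. The tapetum sum still differed by label, at 59.2 and 53.2 FPKM in Col-0 B and C against 198 and 353 in *ice1-2* A and C. This fit therefore cannot separate tapetum level from genotype, and the part of tapetum RNA in these differences was not tested. In the same fit *GSTF4* was called as well, at 1.30 (BH-adjusted p = 0.0447 from limma).

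**Figure D4:**
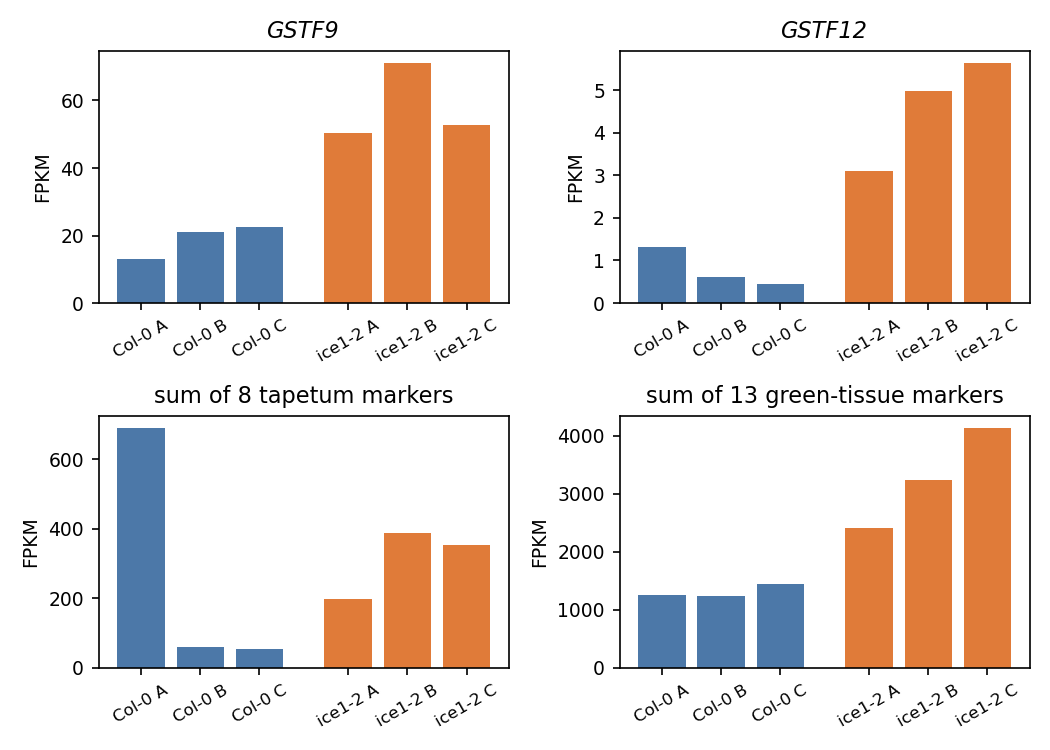
FPKM of *GSTF9* and *GSTF12* and the summed FPKM of 8 tapetum and 13 green-tissue markers, 1 bar per library with Col-0 in blue and the libraries labelled *ice1-2* in orange. Both members and the green-tissue sum are higher in all 3 libraries labelled *ice1-2*, while the tapetum sum is highest in Col-0 A at 692 FPKM.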

How the data were processed

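RNA-seq libraries of anthers, 3 labelled Col-0 and 3 labelled *ice1-2*, were used as deposited. The authors trimmed the reads, mapped them to TAIR10 with TopHat, counted them per gene with HTSEQ and deposited FPKM values, which keep no exact depth and no strand. Genes with at least 1 FPKM in at least 3 of the 6 libraries were tested on log2(FPKM + 0.5) with limma 3.58.1 (R 4.3.3, eBayes with trend, genotype only), fitted over all genes, with Benjamini-Hochberg adjustment. The fit was tested on simulated data. The limits on fold and adjusted p are those of the study, whose own test ran on read counts.

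The members and gene lists were chosen with earlier results of these data known. All members were named whatever their values, and in each other list up to 3 called genes a direction with the largest fold change. Members under the filter were fitted without it. Coordinates, exons and sequences came from RefSeq (TAIR10.1, while the files hold gene IDs only), in which all 10 members matched. Coding identity was from global alignment with Biopython 1.88. Alternatives were pseudocounts of 0.1 and 1, no filter, a filter of 5 FPKM, median-ratio scaling, a replicate block, library quality weights, no limit on the fold, and leaving out each library.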

Additional observations from a re-analysis of the deposited data

How the results depend on the processing

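The 2 members called higher became 0 with no filter on low FPKM, 0 with the replicate block, 1 with a filter of at least 5 FPKM and 1 after median-ratio scaling, and 0 to 2 when 1 library was left out. With the replicate block *GSTF9* and *GSTF12* had BH-adjusted p of 0.0508 and 0.0674 from limma. With the block 31 genes were called higher and 4 lower, in place of 291 and 44. The counts were 24 and 4 with no filter, 663 and 140 with library quality weights and, chosen after the data were seen, 578 and 118 when Col-0 A and *ice1-2* B were both left out. That last fit asked for 1 FPKM in at least 2 libraries, so the genes tested differed from those of the main fit. After median-ratio scaling 128 were called higher. Leaving out 1 library gave 11 to 547 higher and 0 to 81 lower. The 4 tau-class genes called higher became 0 with no filter, 0 with the block, 2 with a filter of at least 5 FPKM, 2 after median-ratio scaling and 0 to 4 with 1 library left out. With library quality weights 6 tau-class genes were called higher, with 4 glucosinolate, 3 anthocyanin and 2 small-class genes in place of 2, 0 and 0. The difference in the share of *GSTF10*, 2.81 percentage points, ran from -0.74 (without *ice1-2* A) to 6.60. *GSTF5*, at -0.38 on the log2 scale, ran from -0.66 to 0.084 with 1 library left out, the highest when that was Col-0 A, and was 0.20 when *ice1-2* B was dropped as well. Over 18858 genes the deviations of libraries of the same letter from their group means correlated at -0.21, 0.05 and 0.12. Not every library correlated best with its own letter. Deviations from a mean of 3 libraries are tied to each other, so these values cannot settle whether the letters pair the libraries. *GSTF8* and *GSTF10* were called under none of these alternatives, and no member changed sign. Of the 6 members below the filter 4 could be fitted, and 0 of these were called; *GSTF3* and *GSTF14*, at 0 throughout, were not fitted.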
